A study of Mus musculus with 6 samples.

Results

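Podocytes are the epithelial cells that wrap the capillaries of the glomerulus, the filter of the kidney. Their interlocking foot processes are bridged by the slit diaphragm, a cell junction built around the adhesion protein nephrin, and they normally do not divide after they have matured. Loss of podocytes or of their junction lets protein pass into the urine, and both are studied as features of diabetic kidney disease. The 8 podocyte genes described here were taken by symbol from the table of gene counts: Nphs1, Magi2 and Plce1 of the slit diaphragm and its signalling, Podxl and Ptpro of the cell surface, Synpo of the actin cytoskeleton, and Wt1 and Cdkn1c of the nucleus. All 8 were found among 24434 symbols, and all 8 were among the 16373 genes kept by the filter on low counts. The question asked of them was whether they moved together, as a change in podocyte number would move them, or apart. In whole kidney RNA, fewer podocytes and less RNA per podocyte cannot be told apart.

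The series compared whole kidneys of mice fed normal chow. The diabetic model was db/db (3 libraries), in which both copies of the leptin receptor gene carry the db allele, and the control was db/m (3 libraries). Nothing in the labels ties a library to its own mouse, and p-values therefore reflect only library-to-library spread. The sources used here give no age, sex or strain. Total counts ran from 25937756 to 35931140 per library, and the 8 genes had between 75 and 7373 counts in each.

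Expression is given in CPM, the counts of a gene per megacount of library size after scaling by TMM, a method that assumes most genes are unchanged. Groups were compared with edgeR's quasi-likelihood test, and a gene was called at a Benjamini-Hochberg adjusted p below 0.05 over all tested genes. A log2 fold change is positive where db/db was higher. Of all tested genes, 13.1% were called higher and 10.8% lower in db/db. With total counts as the only scaling these shares were 6.55% and 29.8%, and the median log2 fold change of all genes shifted by -0.26 on the log2 scale. Lepr, the gene that the db allele disrupts, stood at 2.94, 2.48 and 3.61 CPM in db/m replicates 1 to 3 and 5.66, 2.54 and 5.15 CPM in db/db replicates 1 to 3 (log2 fold change 0.56, SE 0.33, adjusted p = 0.246). The count covers every form of the receptor, and Lepr did not separate the labels. The leptin gene Lep, given at the end, is the other gene here that bears on the labels, and neither gene was used to test them. Each direction below therefore rests on the labels, and an exchange of the labels would turn them all. Adipoq, an adipocyte gene, was at 13.6 and 19.2 CPM in replicate 3 of db/m and db/db and at 0.0792 to 1.34 CPM in the other 4 libraries.

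All 8 podocyte genes had a log2 fold change below 0, as did 54.7% of all genes, and 3 of them passed the test as lower in db/db: Cdkn1c, Ptpro and Magi2. None passed as higher by edgeR, by DESeq2 or by limma-voom, and 0 were higher at an unadjusted p below 0.05. The share called lower, 3 of 8, stands beside 10.8% of all genes, and by DESeq2 it was 4 of 8 beside 13.3% (16.2% of all genes were higher by DESeq2). The median of the 8 log2 fold changes was -0.61, against -0.06 over all genes. They ranged from -0.19 for Synpo to -1.37 for Cdkn1c. With total counts only, 7 of the 8 were called lower (all but Synpo), beside 29.8% of all genes, and the median was -0.87. The distance between the median of the 8 and that of all genes was -0.55 under both scalings. A change of scaling shifts all log2 fold changes by nearly the same amount, so this distance could hardly differ. Leaving out replicate 3 of both labels, the libraries richest in adipocyte RNA, left Cdkn1c and Ptpro called, 2 of 8, beside 4.02% of all genes lower and 6.40% higher. The groups did not overlap for 4 of the 8, all of them lower in db/db, as for 22.2% of all genes in that direction.

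**Figure D1:**
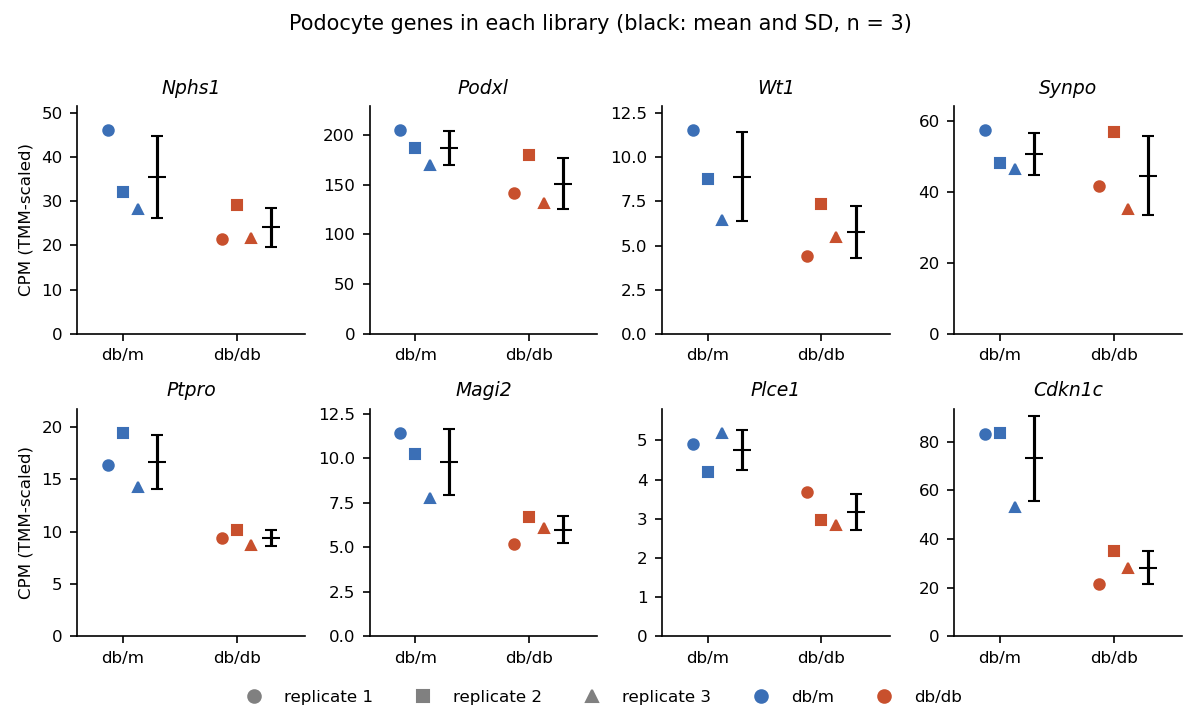
Expression of the 8 podocyte genes in each library, in TMM-scaled CPM on axes that start at 0, with replicates by symbol and black bars for the mean and SD of 3 libraries. The groups are apart for Cdkn1c, Ptpro, Magi2 and Plce1 and overlap for Nphs1, Podxl, Wt1 and Synpo.

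Nphs1 encodes nephrin, whose extracellular domains meet across the slit. It stood at 46.0, 32.0 and 28.3 CPM in db/m replicates 1 to 3 and at 21.4, 29.2 and 21.7 CPM in db/db replicates 1 to 3. Replicate 1 was the highest db/m library, and db/db replicate 2 reached above the lowest db/m library. Its means were 35.4 ± 9.34 and 24.1 ± 4.41 CPM (SD, n = 3 each), and its log2 fold change of -0.55 (SE 0.21) did not pass the edgeR test (adjusted p = 0.0917). It passed by DESeq2 (adjusted p = 0.0490).

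Magi2 encodes a membrane-associated scaffold that binds nephrin and holds it to other junction proteins. It was at 11.4, 10.3 and 7.76 CPM under db/m and at 5.18, 6.70 and 6.10 CPM under db/db, and every db/db library was below every db/m library. On the log2 scale Magi2 fell by 0.71 (SE 0.20, adjusted p = 0.0370). This call held without db/m replicate 3 (adjusted p = 0.0205) and ended on leaving out db/m replicate 1 or 2 or any db/db library (adjusted p = 0.0662 to 0.110).

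Plce1 encodes a phospholipase C that acts downstream of small GTPases and receptors and is mutated in a childhood nephrotic syndrome. It had the lowest counts of the 8, with 4.91, 4.20 and 5.18 CPM under db/m and 3.69, 2.97 and 2.85 CPM under db/db. The groups did not overlap, and the log2 fold change of -0.59 (SE 0.20) did not pass (adjusted p = 0.0724).

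Ptpro encodes a receptor tyrosine phosphatase of the foot process surface. It was at 16.4, 19.4 and 14.2 CPM under db/m and at 9.35, 10.1 and 8.69 CPM under db/db, and every db/db library was below every db/m library. From a mean of 16.7 ± 2.59 to one of 9.39 ± 0.729 CPM (SD, n = 3 each), Ptpro fell by 0.83 in log2 units (SE 0.15, adjusted p = 0.00853). It stayed called without any one library (adjusted p = 0.00828 to 0.0386).

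Podxl encodes podocalyxin, the negatively charged sialomucin that coats foot processes and keeps them apart, and is also made by vascular endothelium. It had the highest counts of the 8, at 204.7, 186.6 and 169.9 CPM under db/m and 141.3, 180.1 and 131.5 CPM under db/db. Only db/db replicate 2 entered the db/m range. The log2 fold change of -0.31 (SE 0.14) did not pass (adjusted p = 0.137). Without db/db replicate 2 it was -0.45 and passed (adjusted p = 0.0463).

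Synpo encodes synaptopodin, an actin-associated protein of the foot processes. It stood at 57.2, 48.2 and 46.3 CPM under db/m and at 41.7, 56.7 and 35.0 CPM under db/db. Of the db/db libraries, replicate 2 was inside the db/m range, near its top, and the other 2 were below it. Its log2 fold change was -0.19 (SE 0.18, adjusted p = 0.479), which does not show that it was unchanged.

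Wt1 encodes a zinc finger transcription factor that podocytes keep after nephron formation and that is known to bind the promoters of several podocyte genes, Nphs1 among them. It was at 11.5, 8.76 and 6.44 CPM under db/m and 4.42, 7.33 and 5.48 CPM under db/db, again with db/db replicate 2 inside the db/m range. Its log2 fold change was -0.63 (SE 0.27, adjusted p = 0.133).

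Cdkn1c encodes p57, an inhibitor of cyclin-dependent kinases that marks podocytes leaving the cell cycle, and it is imprinted, with expression from the maternal copy. It was at 83.2, 83.4 and 53.0 CPM under db/m and at 21.5, 35.2 and 28.0 CPM under db/db. The highest db/db library was below the lowest db/m library. Its means were 73.2 ± 17.5 and 28.2 ± 6.86 CPM (SD, n = 3 each). In log2 units it fell by 1.37 (SE 0.23, adjusted p = 0.00681), which is 61.4% lower by the ratio of means. Of all tested genes, 4.13% had a log2 fold change as low or lower, against 10.5% for Ptpro and 39.4% for Synpo. The call on Cdkn1c held without any one library (adjusted p = 0.00403 to 0.0323).

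**Figure D2:**
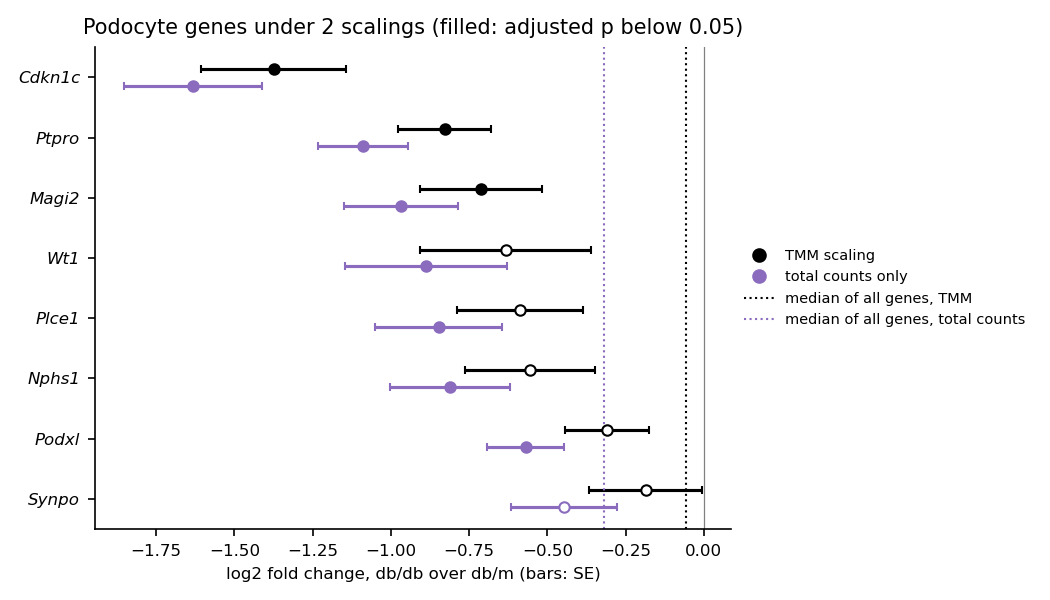
Log2 fold change of each podocyte gene with its SE, under TMM scaling (black) and with total counts only (purple), filled where the adjusted p is below 0.05, with dotted lines at the median of all genes. The order of the genes is the same under both scalings, from Cdkn1c at -1.37 to Synpo at -0.19 with TMM. A change of scaling shifts all genes nearly alike, so the order could hardly differ.

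The RefSeq promoter table of GRCm38.p6 held promoters for Nphs1, Ptpro, Magi2 and Plce1, with a second start for Magi2, each reaching 250 bases before to 50 after a transcript start. Of these, 3 are printed 5′ to 3′, all on the plus strand: Nphs1 because it defines the slit diaphragm and is a known Wt1 target, and Magi2 and Ptpro because they were called lower. Capitals mark matches to 4 motifs searched on both strands, GNGTGGGNG for WT1, TAATTA for LMX1B, GTAAACA for forkhead factors and CAGCTG for TCF21.
Nphs1 (chr7:30459808-30460107): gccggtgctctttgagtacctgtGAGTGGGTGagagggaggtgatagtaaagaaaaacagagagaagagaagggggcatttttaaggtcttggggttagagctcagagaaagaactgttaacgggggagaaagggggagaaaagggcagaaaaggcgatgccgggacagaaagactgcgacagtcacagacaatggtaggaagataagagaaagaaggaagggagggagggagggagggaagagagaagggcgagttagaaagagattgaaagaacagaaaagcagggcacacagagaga
Magi2, upstream start (chr5:19226796-19227095): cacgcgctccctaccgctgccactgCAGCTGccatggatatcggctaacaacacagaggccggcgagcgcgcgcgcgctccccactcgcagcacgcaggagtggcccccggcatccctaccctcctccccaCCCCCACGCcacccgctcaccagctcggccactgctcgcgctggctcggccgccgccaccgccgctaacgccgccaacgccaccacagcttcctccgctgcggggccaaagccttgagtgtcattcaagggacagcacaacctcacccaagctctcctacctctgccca
Ptpro (chr6:137252049-137252348): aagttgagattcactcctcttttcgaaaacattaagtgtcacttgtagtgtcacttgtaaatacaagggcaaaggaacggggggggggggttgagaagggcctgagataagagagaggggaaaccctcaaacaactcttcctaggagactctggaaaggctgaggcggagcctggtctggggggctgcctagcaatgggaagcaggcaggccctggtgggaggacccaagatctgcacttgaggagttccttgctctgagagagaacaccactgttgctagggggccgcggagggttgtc

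The Nphs1 promoter held a WT1 motif on its plus strand from -227 to -219 relative to the start, and the upstream Magi2 promoter held one on the minus strand from -119 to -111. In all, 2 of the 5 podocyte gene promoters searched had this motif, beside 14.3% of 32851 promoters of the same length. The upstream Magi2 promoter also had the TCF21 motif from -225 to -220, a motif in 16.3% of promoters, and the other Magi2 start had the LMX1B motif, which 5.29% hold. No match of any of the 4 lay in the Ptpro or Plce1 window. The forkhead motif, in 3.65% of promoters, was in none of the 5 windows, and no matches overlapped. A match is only a run of letters, and nothing about binding was measured here.

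Whether the 8 genes moved together was measured within each library, by dividing each gene by the geometric mean of the other 7, which removes any effect of library scaling. For 5 of the 8 the ratio overlapped between groups, so they moved by amounts that these libraries do not separate from that of the rest. For the remaining 3 it did not overlap: Cdkn1c was lower relative to the others in every db/db library, and Podxl and Synpo were higher. How many of all genes would separate on such a ratio was not determined. On CPM itself, 22.2% of all genes were lower in db/db without overlap. Cdkn1c was 3.36, 3.89 and 2.83 times the geometric mean of the others under db/m and 1.55, 2.05 and 2.07 times under db/db. Its log2 ratio differed by -0.83 between groups, against SDs of 0.23 and 0.24 within them (two-sided exact permutation test, p = 0.1, the smallest that 3 against 3 allows).

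Podxl was 9.41, 9.75 and 10.7 times the others under db/m and 13.3, 13.2 and 12.1 times under db/db, a log2 difference of 0.38 (exact permutation p = 0.1). Synpo was 2.19, 2.07 and 2.42 times the others under db/m and 3.30, 3.53 and 2.67 times under db/db, a log2 difference of 0.50 (exact permutation p = 0.1). With 8 ratios compared, none can pass a correction at this group size. The reference for these 2 genes includes Cdkn1c. With Cdkn1c left out of it, a choice made after the values were seen, the differences were 0.26 for Podxl and 0.39 for Synpo, and the groups still did not overlap. Nphs1, Wt1, Magi2, Ptpro and Plce1 had log2 differences of 0.12, 0.03, -0.06, -0.20 and 0.06, with exact permutation p from 0.3 to 1.

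The widest contrast within a library was that of Cdkn1c with Synpo. Their CPM ratio was 1.45, 1.73 and 1.15 in db/m replicates 1 to 3 and 0.516, 0.621 and 0.800 in db/db replicates 1 to 3. Cdkn1c was the more abundant of the pair in counts in every db/m library and the less abundant in every db/db library. This pair was chosen after the values were seen.

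**Figure D3:**
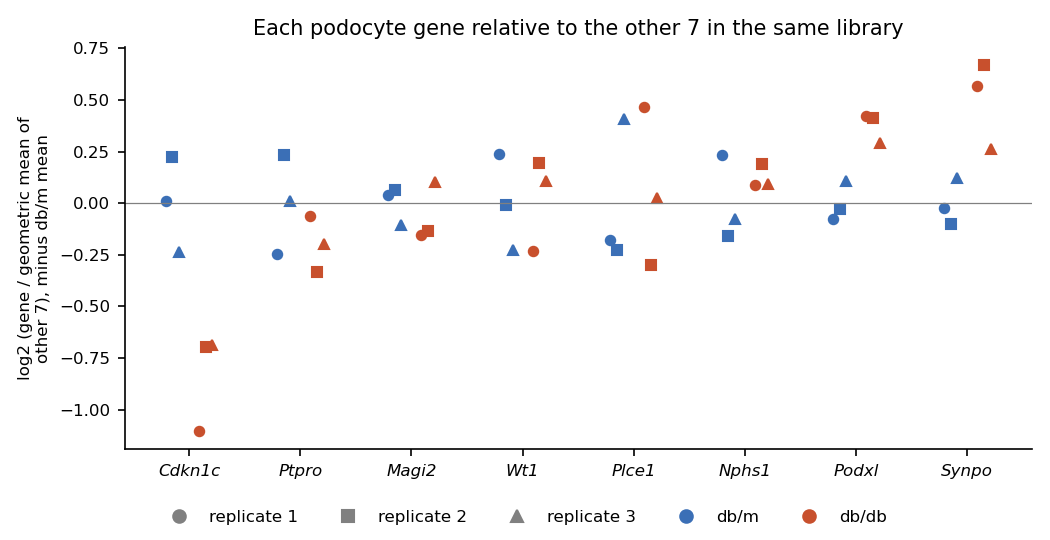
Log2 ratio of each podocyte gene to the geometric mean of the other 7 in the same library, set to 0 at the db/m mean, with blue for db/m, red for db/db and symbols for replicates. The groups are apart for Cdkn1c, Podxl and Synpo and mixed for the other 5.

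Levels were compared between genes per kilobase of exon, with the union of exons in GENCODE M21, which may not be the annotation the authors used. Under db/m, Cdkn1c and Podxl stood highest at 35.9 and 34.1 CPM per kilobase, and the Podxl libraries (31.0 to 37.3) lay inside the range of Cdkn1c. Nphs1 and Synpo followed at 5.35 and 5.30, again overlapping, then Ptpro at 2.48, Wt1 at 1.44, Magi2 at 0.864 and Plce1 at 0.298 CPM per kilobase. Under db/db, Podxl stood at 27.5 CPM per kilobase and Cdkn1c at 13.8, and each Podxl library (24.0 or more) was above each Cdkn1c library (17.3 or less). Synpo came next at 4.66 and Nphs1 at 3.64 CPM per kilobase, with overlapping libraries, and the order of the remaining genes was the one seen under db/m.

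The 8 genes also varied together between libraries of the same label. Under db/db, replicate 2 had the highest value for 7 of the 8, all but Plce1. Under db/m, replicate 3 had the lowest value for 7 of the 8, again all but Plce1, and replicate 1 had the highest for 5. The geometric mean of the 8 was 28.8, 25.4 and 21.4 CPM in db/m replicates 1 to 3 and 14.7, 18.8 and 14.8 CPM in db/db replicates 1 to 3. The groups did not overlap on it, and db/m replicate 3 was nearer to db/db replicate 2 than to db/m replicate 1.

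The libraries that stood high or low for podocyte genes also differed in other cell types. The geometric mean of 10 distal nephron and collecting duct genes was 149 CPM in db/db replicate 2 and 194 and 173 CPM in replicates 1 and 3, and that of 10 proximal tubule genes was 1138 CPM in replicate 2 against 1009 and 952 CPM. In db/m replicate 3, where podocyte genes were lowest, the geometric mean of 15 endothelial genes was the highest of the label at 45.5 CPM, against 36.3 and 29.3 CPM. Between labels, the distal list moved in the same direction as the podocyte genes. Its geometric mean was 197, 283 and 205 CPM in db/m replicates 1 to 3, all above the 3 db/db libraries, a log2 difference of -0.40. Of its 10 genes 3 were called lower (Aqp2, Slc12a3 and Slc4a1), 1 higher (Slc26a4) and 6 neither, with a median of -0.48. Over all genes, 10.8% were called lower and 13.1% higher. Aqp2, the water channel of the collecting duct, fell by 1.09 in log2 units (SE 0.23, adjusted p = 0.0154). Slc12a3 and Slc4a1 lost their calls without db/db replicate 3, and all 3 lost them without replicate 3 of both labels. The part of these differences in the podocyte values was not tested.

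**Figure D4:**
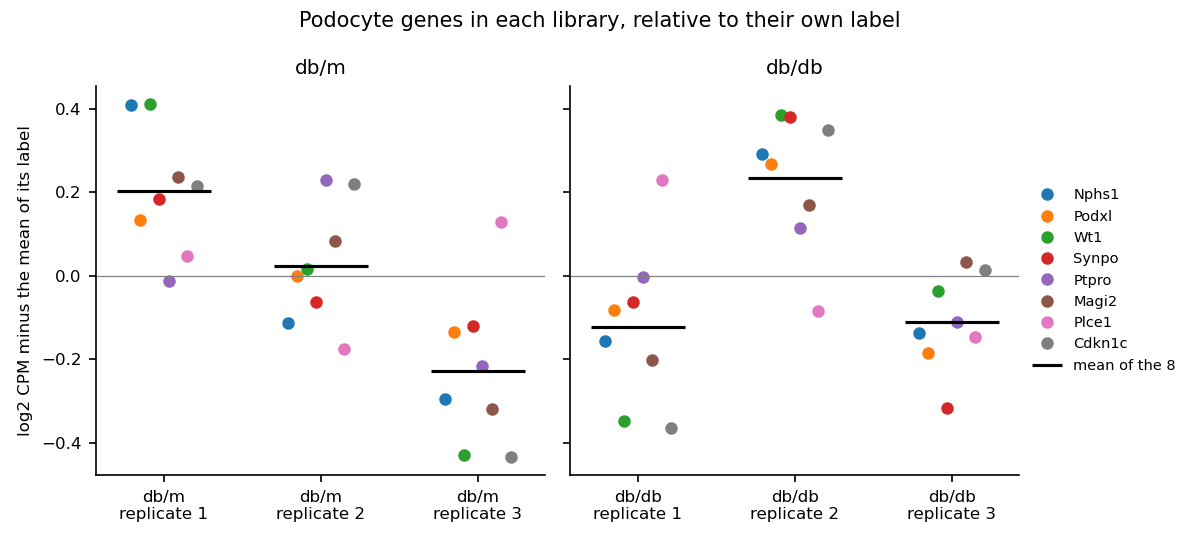
Log2 CPM of each podocyte gene minus the mean of its own label, by library, with a bar at the mean of the 8. The bar is highest in db/db replicate 2, at 0.23, and lowest in db/m replicate 3, at -0.23, and Plce1 (pink) lies on the other side of 0 from it in both.

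Beyond the 8, 74 other genes known from podocytes were listed by role, of which 70 could be tested. Of these 16 were called lower, 3 higher and 51 neither, with a median of -0.28, beside 10.8% of all genes lower and 13.1% higher. Leaving out db/m replicate 2 left 9 called lower, beside 5.10% of all genes lower and 8.36% higher. Leaving out replicate 3 of both labels left 7, beside 4.02% lower. With total counts only, 35 were lower and 1 higher, beside 29.8% and 6.55%. Many listed genes are also expressed in tubules, whose distal list was lower too, so their whole kidney level is not a podocyte level. Pax2, among the 16 called lower, is switched off in mature podocytes.

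The slit diaphragm partners held most of the falls, with 10 of 17 tested genes lower and 0 higher, and a median of -0.52. Over all genes, 10.8% were lower and 13.1% higher. DESeq2 also called 0 higher, and 1 gene, the polarity gene Pard3, was higher at an unadjusted p below 0.05 (log2 fold change 0.35, adjusted p = 0.0970). Crb2, a slit diaphragm polarity protein, fell by 1.10 in log2 units (SE 0.26, adjusted p = 0.0226), and the call ended without db/m replicate 1 or 2 or db/db replicate 1 or 3. Efnb1, an ephrin found at the slit, fell by 0.58 (SE 0.11), and Cd2ap, an adaptor that links the slit to actin, by 0.55 (SE 0.11). The other genes lower were Tjp1, Pard6b, Prkci, Iqgap1, Nck2 and Cdh3, most of which act at junctions in many epithelia, with log2 fold changes of -0.49 (Tjp1) to -1.10 (Cdh3). Without db/m replicate 2 or db/db replicate 3, 6 of the 17 were called lower (beside 5.29% of all genes lower and 8.15% higher in the second case), with Iqgap1, Nck2 and Cdh3 lost in both cases. Without replicate 3 of both labels 3 were called lower, and Crb2, Efnb1 and Tjp1 were among those lost.

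Of 17 genes of the podocyte actin cytoskeleton, 1 was lower and 2 higher, with a median of -0.05. These counts are near the shares of all genes, 10.8% lower and 13.1% higher, and are no result about the list. Dnm1, a dynamin, fell by 1.62 in log2 units (SE 0.26, adjusted p = 0.00557), from 6.96 ± 1.54 to 2.27 ± 0.458 CPM (SD, n = 3 each). Tns2, a tensin of focal adhesions whose loss causes kidney disease in mice, rose by 0.71 (SE 0.11), and Cttn, which encodes the actin-binding cortactin, by 0.51 (SE 0.10), although Cttn was not called with total counts only. Actn4, the actin cross-linking alpha-actinin of foot processes, had a log2 fold change of -0.21 (adjusted p = 0.220).

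Among 11 transcription factors 3 were lower and 0 higher by edgeR, beside 10.8% and 13.1% of all genes, with a median of -0.32. DESeq2 called 1 higher, beside 16.2% of all genes, and 1 was higher at an unadjusted p below 0.05. Tcf21, which podocytes need to mature, was at 16.2, 13.6 and 13.9 CPM under db/m and 7.51, 8.99 and 7.92 CPM under db/db. Tcf21 fell by 0.84 in log2 units (SE 0.14, adjusted p = 0.00595), a call that ended without replicate 3 of both labels. Pax2, which mature podocytes switch off and which parietal and collecting duct cells keep, fell by 1.38 (SE 0.20). Although counted among the 3 lower factors, it is therefore no measure of mature podocytes. Foxc2 fell by 0.83 (SE 0.25, adjusted p = 0.0491), a call that ended without any one of the 6 libraries.

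Surface and secreted podocyte genes gave 2 lower and 1 higher of 25, with a median of -0.20. These counts are near or below the shares of all genes, 10.8% lower and 13.1% higher, and are no result about the list. Pdpn, which encodes podoplanin, fell by 1.16 (SE 0.28, adjusted p = 0.0239) and lost its call without replicate 2 of db/m or replicate 1 or 3 of db/db. Ptgs1 fell by 0.60 (SE 0.17) and Htra1 rose by 0.70 (SE 0.20), and each kept its call in 1 of the 6 fits that left out a library, without db/m replicate 1 for Ptgs1 and without db/m replicate 3 for Htra1. With total counts only, Htra1 was not called. Vegfa, the growth factor by which podocytes maintain glomerular endothelium and which tubules make too, had a log2 fold change of -0.06 (SE 0.13). In all, 11 of the 19 called genes in these lists kept their call when any one library was left out, 9 of them lower, Pax2 included.

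**Figure D5:**
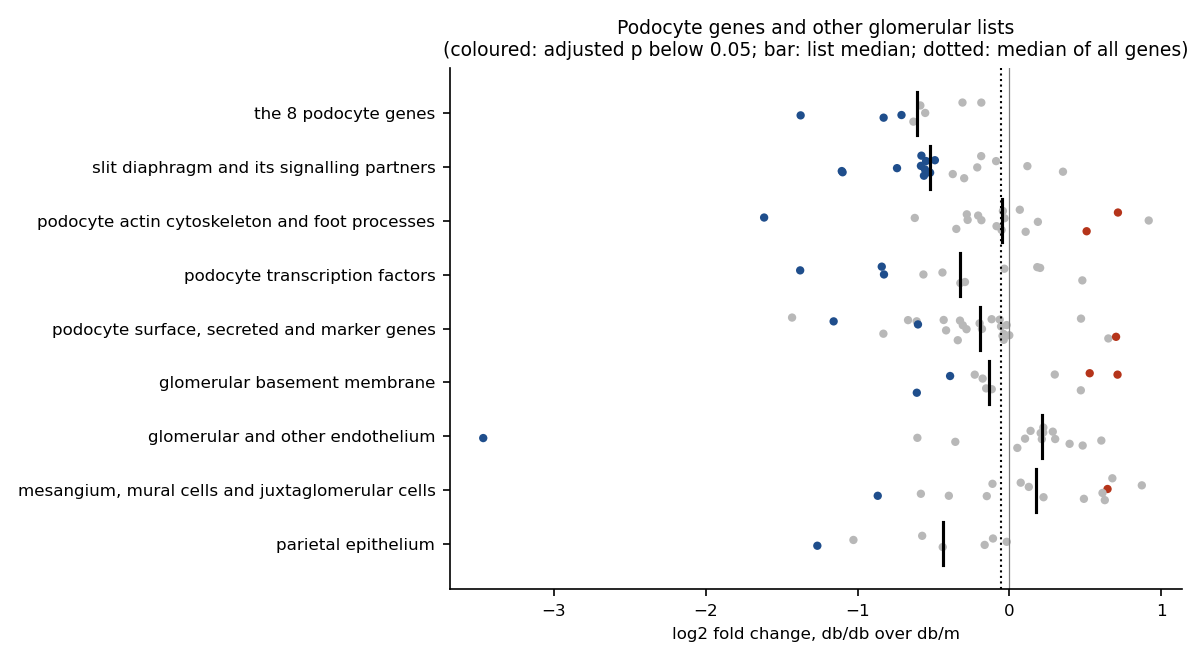
Log2 fold changes of the tested genes in the list of 8 and in 8 other lists, whose genes are not limited to the glomerulus. Blue points were called lower and red ones higher. A black bar marks each list's median, and a dotted line marks that of all genes. The 8 podocyte genes and the slit diaphragm partners have medians of -0.61 and -0.52, and the endothelial and mesangial lists have medians of 0.21 and 0.18 with this scaling.

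Lists for other cells and the matrix of the glomerulus are given for comparison, with no test of a difference between lists. The endothelial list covers glomerular and other endothelium, and the mesangial list also holds mural and juxtaglomerular genes. In whole kidney RNA, levels of these lists are not those of the glomerulus alone. Of 15 endothelial genes 1 was lower and 0 higher by edgeR, with a median of 0.21 (-0.05 with total counts only, where all genes had -0.32). Over all genes, 10.8% were lower and 13.1% higher by edgeR. DESeq2 called 2 higher, beside 16.2% of all genes, and 2 were higher at an unadjusted p below 0.05. Ehd3, a marker of glomerular endothelium, was at 29.5, 19.9 and 34.6 CPM under db/m and 28.9, 42.0 and 26.4 CPM under db/db (log2 fold change 0.21, SE 0.24, adjusted p = 0.547). Kdr, the endothelial receptor for Vegfa, stood at 0.60 on the same scale (SE 0.20, adjusted p = 0.0685). Without db/m replicate 3, 4 of the 15 were called higher, beside 11.7% of all genes higher and 9.11% lower. The geometric mean of the list had the opposite sign to its median, with a log2 difference of -0.08. Sost, the lower one, is part of that geometric mean and fell from 3.49 ± 0.772 to 0.315 ± 0.203 CPM (SD, n = 3 each). Of 14 mesangial and mural genes 1 was higher, the angiotensin receptor gene Agtr1a, and 1 lower, Serpine2, with a median of 0.18 (-0.09 with total counts only). Agtr1a lost its call with total counts only and without db/m replicate 2 or db/db replicate 1 or 2, and Serpine2 lost it without db/db replicate 3. Without db/m replicate 3 the count called higher was 3.

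The geometric mean of the 8 podocyte genes divided by that of the mesangial and mural list was 1.56, 1.81 and 1.08 under db/m and 0.728, 0.902 and 0.845 under db/db. Divided by the endothelial list it was 0.794, 0.868 and 0.470 under db/m and 0.424, 0.471 and 0.499 under db/db, so db/m replicate 3 lay inside the db/db range. The podocyte genes were therefore low relative to the mesangial and mural list in each db/db library. Relative to this endothelial list they were low only when compared with db/m replicates 1 and 2. The list includes Sost, at 3.38, 2.78 and 4.32 CPM under db/m and 0.321, 0.515 and 0.110 CPM under db/db. In db/db replicate 3 that is the level of 3 counts. Such low values pull the geometric mean of the list down under db/db and the ratio up, so the overlap may rest on this 1 gene.

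The glomerular basement membrane is laid down jointly by podocytes and endothelium. Of 10 of its genes 2 were higher, 2 lower and 6 neither, beside 13.1% of all genes higher and 10.8% lower. Col4a3 rose by 0.71 (SE 0.10, adjusted p = 0.00291) and Col4a4 by 0.53 (SE 0.09, adjusted p = 0.00627), the collagen chains that podocytes secrete with Col4a5, which stood at -0.18 (SE 0.16). Col4a4 was not called with total counts only. Lama5 and Nid2 fell by 0.39 and 0.61, and the call of Lama5 ended without any one library and that of Nid2 without any one but db/db replicate 1. Parietal epithelium is the other epithelial layer of Bowman's capsule. Of its 7 listed genes 1 was lower, Cldn1, which fell by 1.26 (SE 0.19, adjusted p = 0.00398). By edgeR, by DESeq2 or at an unadjusted edgeR p below 0.05, 0 were higher. A count of 1 of 7 is near the 10.8% of all genes called lower. All 7 parietal genes had a log2 fold change below 0, as did 54.7% of all genes, with a median of -0.44. Krt8 (-0.02) and Pax8 (-0.11) were close to 0. The geometric mean of the 7 was 22.5, 26.1 and 33.4 CPM under db/m. It was 14.8 and 20.5 CPM in db/db replicates 2 and 3, with db/db replicate 1 just under the lowest db/m library. The groups did not overlap, with a log2 difference of -0.52, near that of the 8 podocyte genes at -0.65. Unlike the podocyte genes, the list was lowest in db/db replicate 2 and highest in db/m replicate 3.

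Genes closest in pattern to the 8 were sought among 12066 named genes, by Pearson's r over the 6 libraries between log2 CPM deviations from the label mean, as a description. Members had r of 0.55 to 0.94 with the mean of the other 7, except Plce1 at -0.45. The nearest 8 other genes were Thap7, Ndufa8, Rp9, Ftl1, Romo1, Tvp23a, Spink1 and Ndufa13, with r down to 0.996 for Ndufa13, and none of them was on a podocyte list. Of 67 podocyte list genes ranked, 1 was among the nearest 100, the podocyte marker Sema3g (r = 0.97), and the median r of the 67 was -0.19 against 0.02 over all. Crb2, Robo2, Thsd7a and Rab3b had r of 0.95, 0.92, 0.90 and 0.88. These 4 were picked after their values were seen.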

How the data were processed

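Whole kidney RNA of 6 mouse libraries, 3 db/db and 3 db/m, was sequenced after poly(A) selection with a kit that keeps the strand, per the labels' protocols. The authors deposited 1 table of raw gene counts, keyed by symbol. The submitters' processing notes name fastp, FastQC, HISAT2, SAMtools, StringTie and DESeq2. Not given in the sources used here are the roles and versions of these tools, the build, the annotation and whether counting used strand. Nphs1os, antisense to Nphs1, had at most 2 counts in a library.

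Counts were filtered with filterByExpr, scaled with TMM (factors 0.901 to 1.122) and compared with edgeR 4.0.16 (glmQLFit, glmQLFTest, no covariates, R 4.3.3). An SE was taken as the log2 fold change divided by the square root of F. Alternatives used DESeq2 1.42.0, limma 3.58.1, other scalings and filters (none, or a minimum in 3 libraries of 1 CPM and of 10 counts), removal of mitochondrial genes, a replicate block and each library left out. Pairs of libraries with the same label had a chi-square over its degrees of freedom of 17.2 or more, so none was 1 library deposited a second time. This does not show that they are separate mice.

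The members, the 14 gene lists (165 symbols, 164 in the table) and the rules for named genes were chosen with earlier results of these data known. The rule named all 8 members, every called gene of the podocyte lists (a few results are not reported here), up to 4 genes of each list by smallest p, and the 8 genes nearest in pattern. Actn4, Vegfa, Ehd3, Col4a5, Robo2, Thsd7a and Rab3b were named outside it, after their values were seen. Adipocyte and adrenal genes were given no test. In a simulation of the db/db to db/m comparison, with 16051 genes tested, 14.6% of 1.5-fold, 55.1% of 2-fold and 94.0% of 4-fold changes were called in the right direction, and 4 of 135 calls were false. Only 48 to 50 tested genes were changed at each size, far fewer than were called in the data. The adjusted p threshold was therefore harder to pass in the simulation, and these rates are not those of the comparison reported here.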

Additional observations from a re-analysis of the deposited data

How the results depend on the processing

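The 8 log2 fold changes stayed below 0 in each of 16 repeats of the comparison. Scaling by total counts alone gave 1072 genes higher and 4883 lower, 7 podocyte genes were called lower, their median was -0.87, and Nphs1 (-0.81), Podxl (-0.57), Wt1 (-0.89) and Plce1 (-0.85) passed, while the other podocyte lists had 1 gene higher and 35 lower. By DESeq2, Nphs1 passed at -0.54 and 6 of the other podocyte genes were higher, beside 16.2% of all genes. The cause of these moves was not tested. Same-numbered libraries had correlations of -0.15, 0.06 and 0.14 between their deviations, against -0.30 to 0.24 for libraries with different numbers. The deviations sum to 0 within a label, so these values cannot exclude that the numbers pair the libraries. With the replicate block 1313 genes were higher and 973 lower, and Magi2 (-0.70) did not pass (adjusted p = 0.0896). Without replicate 3 of both labels, chosen after the data were seen, 1052 genes were higher and 660 lower, Magi2 (-0.86) did not pass and 7 other podocyte genes were lower. Leaving out 1 library at a time gave 1374 to 2011 genes higher, 851 to 1523 lower, 9 to 16 other podocyte genes lower, and log2 fold changes of -0.85 to -0.58 for Magi2 and -0.45 to -0.21 for Podxl. Relative to the other genes, Wt1 turned to -0.086 and Plce1 to -0.053 with the median as reference, and to -0.095 and -0.056 without Cdkn1c in it. Leaving out 1 library gave -0.089 to 0.153 for Wt1 and -0.138 to 0.266 for Plce1.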

Other observations

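The adipocyte genes gave a further value on the labels. Adipoq, which encodes adiponectin, was at 13.6 CPM in db/m replicate 3 and 19.2 CPM in db/db replicate 3, the libraries with the most adipocyte RNA. Lep, which encodes leptin, was at 15.6 CPM in db/m replicate 3 and had a count of 0 in db/db replicate 3, which allows up to 0.110 CPM. In replicates 1 and 2 it was at 0.872 and 0.278 CPM under db/m and at 0.161 and 0 CPM under db/db. Every db/m library was thus above every db/db library, at low levels outside db/m replicate 3. As background, fat of db/db mice is known for high leptin expression. Whether the labels are right was not tested, and an exchange of db/m and db/db would turn every direction reported here. The comparison of the adipocyte-rich libraries rests on 1 library per label, no test was run, and the labels were kept as given.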
